A study of Mus musculus with 2 samples.

Results

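Olfactory receptor genes form the largest gene family of the mouse. They are taken here as all genes of the GENCODE M1 annotation (build mm9) on chromosomes 1 to 19 whose symbol starts with Olfr, which gave 1243 of 34653 genes. Each gene body was widened by 5 kb on each side, and regions less than 200 kb apart were joined into clusters. This gave 61 clusters on 17 chromosomes with 29.5 Mb of called bases. The 100 kb outside each edge served as flank and added up to 12.2 Mb. Neither measured library was used to choose the genes. The joining distance fell between a gap of 194.6 kb, from Olfr455 to Olfr453, which was bridged, and one of 218.9 kb, from Olfr1357 to Olfr1356, which was not. The members comprise 1106 protein-coding genes, 132 pseudogenes and 5 processed transcripts. The symbols Olfr113 and Olfr115 each stand for 2 gene models, and 8 further Olfr genes on other chromosomes are not analysed here.

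The study mapped CTCF in R1/E mouse embryonic stem cells (ESCs) grown without feeders on gelatin with LIF. These cells carry a stably integrated bacterial artificial chromosome (BAC) with the CTCF gene fused at its C-terminus to a LAP tag that contains GFP. The tagged protein is therefore made from a transgene in 1 line of resistant cells sorted for GFP. One library was made by chromatin immunoprecipitation and sequencing (ChIP-seq) with a goat antibody against eGFP, here called CTCF, and the other with goat IgG as isotype control, which the labels also call input DNA. Chromatin of both was fixed with 1% formaldehyde and sheared to about 500 bp. The CTCF library held 8391191 tags and the IgG library 7988889. There is 1 library for each antibody and no replicate, so every interval and exact test below covers counting error within these libraries only. Expression was not measured in these files, and the cell type could not be checked against marker genes.

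CTCF is a zinc finger protein that binds a long DNA motif and, together with cohesin, holds chromatin loops and marks domain borders. Olfactory receptors are G protein-coupled receptors that detect odorants. Each olfactory sensory neuron expresses 1 allele of 1 receptor gene, chosen from arrays that are otherwise kept silent, and ESCs are not olfactory cells. Class I receptors lie together on chromosome 7 and class II receptors in many arrays elsewhere.

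A CTCF matrix was built from 192 sequences, 187 of them distinct, that the study lists as CTCF motif matches in sites of RAD21, a cohesin subunit. Its consensus is shown as the yardstick for the sequences that follow, where capitals mark bases equal to it.
Consensus: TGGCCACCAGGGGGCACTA
The 5 summits with the highest peak scores inside the clusters are shown by the best match within 150 bp of the summit, where there was one. The match near Olfr94 and the match near Olfr1367 lie on the minus strand and are written 5′ to 3′ on that strand.
Near Olfr1349, chr7:6477909-6477927: aGGCCAgaAGaGGGtgCac
Near Olfr94, chr17:37340759-37340777: TaGCCACaAGGtGGCAgcA
Near Olfr1367, chr13:21418201-21418219: ctaCCAgaAGGtGGCgtag
Near Olfr557, chr7:109844087-109844105: TGGCCACaAGaGGGCAgcA
The summit near Olfr523 had no match within that distance. The match near Olfr557 shared 15 of 19 bases with the consensus, that near Olfr94 shared 14, that near Olfr1349 shared 11 and that near Olfr1367 shared 9. The match near Olfr557 is shown once more with 40 bases on each side, on the plus strand, with the motif in capitals.
Olfr557 context, chr7:109844047-109844145: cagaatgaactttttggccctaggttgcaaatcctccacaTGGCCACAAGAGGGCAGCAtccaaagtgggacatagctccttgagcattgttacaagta

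CTCF summits were sparse inside the Olfr clusters and frequent just outside them. The clusters held 118 of the 33226 summits on chromosomes 1 to 19, or 4.0 summits per Mb, and the flanks held 283, or 23.2 per Mb. The density over all of chromosomes 1 to 19 was 13.9 per Mb. The density inside was 0.172 times that of the flanks (95% interval 0.138 to 0.214, exact binomial test, two-sided, p = 2.38e-65). Against all other sequence of these chromosomes it was 0.285 times (0.236 to 0.342). The flanks were in turn denser than the sequence outside clusters and flanks, by 1.66 times (1.47 to 1.87, exact binomial test, p = 3.57e-15).

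The fall in density lay at the edge itself. In the 35 clusters with at least 5 genes, the outermost flank bin, 80 to 100 kb from the edge, held 27.1 summits per Mb (19.2 to 37.3) and the bin within 20 kb of the edge held 22.9 (15.6 to 32.3). The first 20 kb inside held 7.14 (3.43 to 13.1) from 10 summits. Sequence more than 200 kb inside held 1.79 (1.21 to 2.55), from 30 summits in 16.8 Mb. The interval of this core lay below that of the first 20 kb inside. Only the longer clusters reach that depth, so depth and cluster size cannot be told apart in this comparison. The bin from 100 to 200 kb inside, with 7.89 per Mb (5.63 to 10.7), was not lower than the bins nearer the edge, so the density did not fall evenly with depth.

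**Figure D1:**
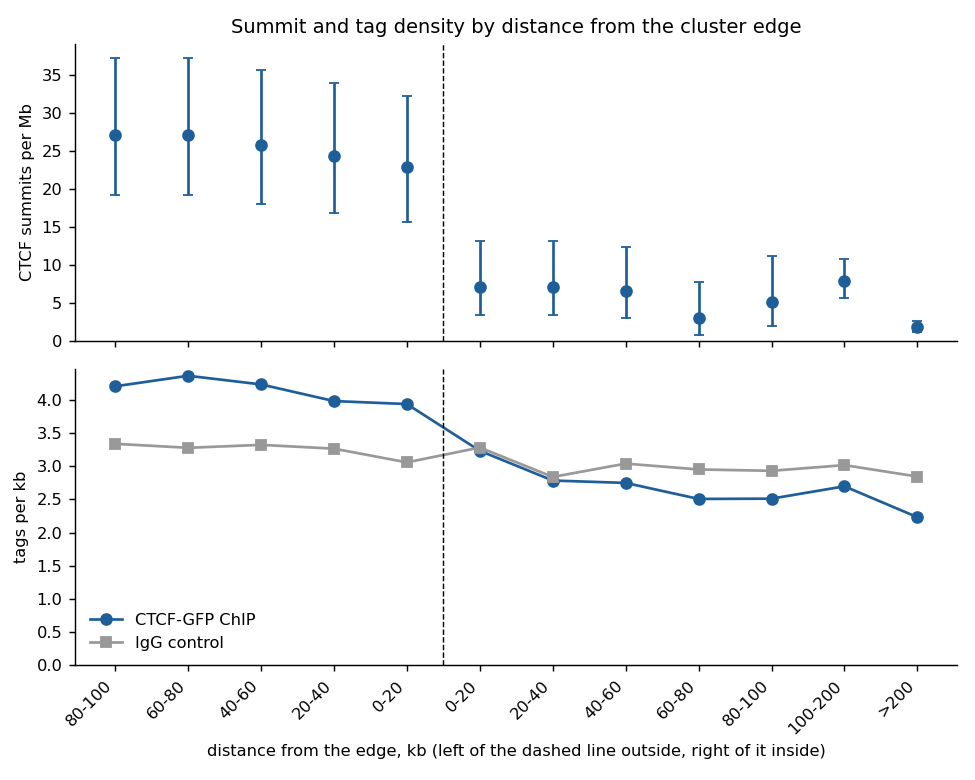
Top, CTCF summits per Mb in bins of distance from the edges of the 35 Olfr clusters with at least 5 genes, with exact 95% intervals of the counts. Bottom, tags per kb of the CTCF and IgG libraries in the same bins. Summit density drops from 22.9 to 7.14 per Mb across the edge, and CTCF tags fall from 3.94 to 3.23 per kb there while IgG tags go from 3.06 to 3.28.

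Tags of the 2 libraries did not fall alike. CTCF tags amounted to 2.46 per kb inside the clusters and 4.04 in the flanks, a ratio of 0.608 (0.601 to 0.615). IgG tags amounted to 2.91 and 3.24 per kb, a ratio of 0.896 (0.885 to 0.907). With each library scaled to its total, the CTCF to IgG ratio was 0.805 inside (0.797 to 0.813), 1.19 in the flanks (1.17 to 1.20) and 1.00 over chromosomes 1 to 19. Without tags in deposited peaks the ratio was 0.772 inside, 1.00 in the flanks and 0.900 over chromosomes 1 to 19. Of the 72549 CTCF tags inside the clusters, 69332 lay outside peaks.

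The clusters are poor in G+C, at 38.9% against 42.6% in the flanks. Windows of 10 kb were therefore compared within classes of G+C content, an analysis added after the first results were seen. At 38 to 40% G+C, 840 windows inside clusters held 2.98 summits per Mb, flank windows 9.79 and windows elsewhere 5.11. The ratio of inside to elsewhere was 0.582 (0.376 to 0.862), and that of inside to flanks 0.304 (0.161 to 0.584). At 40 to 42% the density inside was 0.420 times that elsewhere (0.253 to 0.658) and at 42 to 44% it was 0.534 times (0.316 to 0.845). At 34 to 36% it was 0.267 (0.0321 to 0.973), from 2 summits in 378 windows inside. At 36 to 38% the value was 0.674 with an interval that included 1 (0.376 to 1.12). At 44 to 46% it was 1.33 (0.858 to 1.96), from 25 summits in 86 windows, so in the richest class compared no deficit was measured. Windows under 34% or over 46% were not compared.

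The tag ratio outside peaks was compared in the same classes. At 34 to 36% G+C it was 0.731 inside the clusters (0.712 to 0.751) and 0.732 elsewhere (0.728 to 0.735). At 36 to 38% it was 0.723 inside (0.709 to 0.738) and 0.735 elsewhere (0.733 to 0.738), and in both classes these intervals overlap. At 38 to 40% G+C it was 0.737 inside (0.723 to 0.751) and 0.764 elsewhere (0.762 to 0.766). At 40 to 42% it was 0.793 inside (0.773 to 0.813) and 0.826 elsewhere (0.824 to 0.828). At 42 to 44% it was 0.875 inside (0.845 to 0.907) and 0.911 elsewhere (0.908 to 0.913). In the classes from 38 to 44% the intervals inside thus lay below those elsewhere. At 44 to 46% the tag ratio was 1.05 inside (0.991 to 1.11) and 1.02 elsewhere. In the flanks at 38 to 40% it was 0.832 (0.802 to 0.862), above both. The part of base composition in the sparse summits was not otherwise tested.

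**Figure D2:**
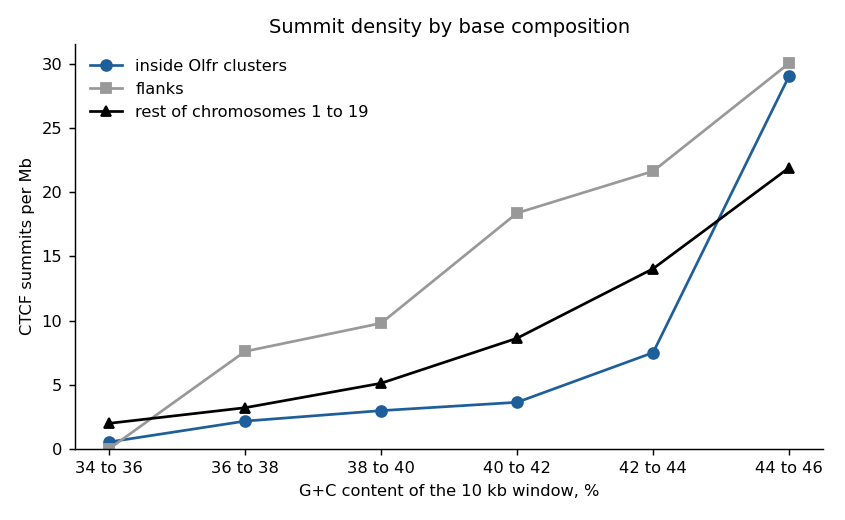
CTCF summits per Mb in 10 kb windows by G+C content, for windows inside Olfr clusters, in the flanks and elsewhere on chromosomes 1 to 19. The clusters lie lowest from 36 to 44% G+C and reach 29.1 per Mb at 44 to 46%, beside 30.1 in the flanks and 21.9 elsewhere.

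By classes of size, clusters with 25 genes or more had lower densities than the smaller ones, while single clusters of a class varied widely. The 10 clusters with 25 to 49 genes held 1.85 summits per Mb and the 5 with 50 genes or more held 2.63, beside 23.5 and 27.0 in their flanks. Their inside to flank ratios were 0.0787 (0.0430 to 0.138) and 0.0973 (0.0562 to 0.169). The 9 clusters with 10 to 24 genes held 8.70 per Mb and the 11 with 5 to 9 genes held 8.39, with ratios of 0.326 (0.21 to 0.505) and 0.330 (0.185 to 0.563). The 15 clusters with at least 25 genes together hold 958 genes, 21.5 Mb and 49 summits. The 16 single genes have 2 summits between them, too few to place their ratio of 0.689 (0.0813 to 2.61) apart from either.

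Among the 35 clusters with at least 5 genes, the density inside was below that of the cluster's own flanks in 34. The exception was the cluster from Olfr1379-ps1 to Olfr1374-ps1 on chromosome 11, with 4 summits inside at 20.6 per Mb and 4 in its flanks. Across the 35 the median density was 3.25 per Mb inside, from 0 to 46.9, and 20 in the flanks, from 5 to 60. All 35 had a summit in the flanks, and 8 had none inside. These 8 hold 180 genes in 5.00 Mb, where a count of 0 allows up to 0.600 summits per Mb.

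**Figure D3:**
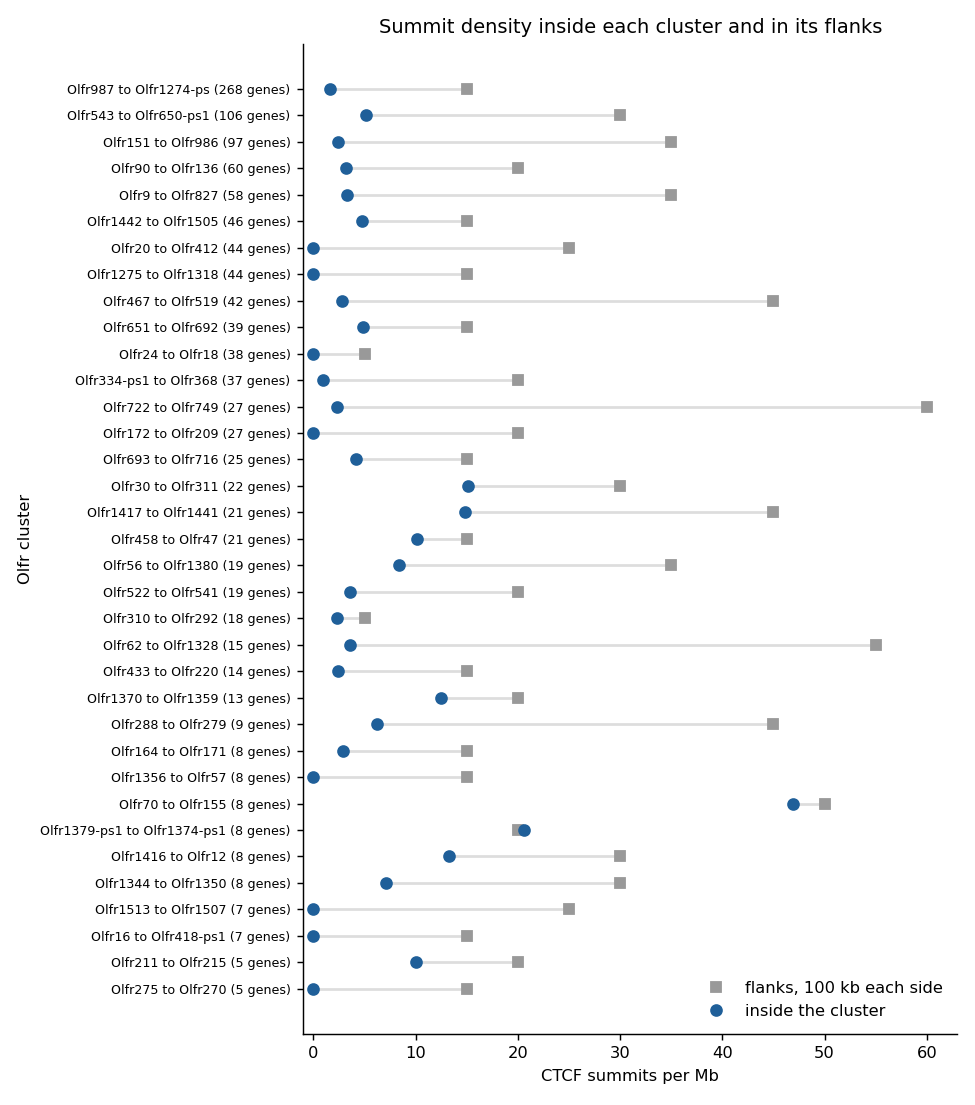
CTCF summits per Mb inside each of the 35 Olfr clusters with at least 5 genes (circles) and in its 2 flanks of 100 kb (squares), ordered by number of genes. The circle lies left of the square in 34 clusters.

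The cluster from Olfr987 to Olfr1274-ps, at chr2:85166054-90246831, is the largest, with 268 genes in 5081 kb. It held 8 summits, 1.57 per Mb, with 10450 CTCF and 13585 IgG tags. Its highest summit, score 203.55, lay 17.8 kb upstream of Olfr996, and the next, score 186.7, lay 22.3 kb past Olfr1126. These scores are modest beside the highest inside any cluster, given below. Between its summits lay a stretch of 1189 kb that holds 59 genes from Olfr1178 to Olfr1243.

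The class I cluster from Olfr543 to Olfr650-ps1, at chr7:109620287-111360523, has 106 genes in 1740 kb and held 9 summits, 5.17 per Mb. It contains Olfr78, a receptor also known from the kidney and the carotid body, and the beta-globin genes. Of its 9 summits, 6 lie in the first 448 kb, among them the one near Olfr557 shown above, which had 51 CTCF tags and 4 IgG tags in its peak. The next 887 kb, with 58 genes from Olfr572 to Olfr67, were free of summits up to 1 summit of score 77.25, which lay 5.42 kb from Hbb-b2 and was the only one within 50 kb of the Hbb genes. The density of this cluster was 1.32 times that of all other Olfr clusters (0.587 to 2.60, exact binomial test, p = 0.430), so a difference was not detectable with 9 summits. Counted with its neighbour, which runs from Olfr651 to Olfr692, the ratio was 1.30 (0.670 to 2.32).

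The cluster from Olfr151 to Olfr986 on chromosome 9, with 97 genes, held 6 summits at 2.41 per Mb. The highest of them, score 218.39, lay 1.64 kb past Olfr957. The cluster from Olfr90 to Olfr136 on chromosome 17, beside the MHC, has 60 genes and held 4 summits, all in its first 171 kb on the side of Gabbr1, which encodes a GABA-B receptor subunit. The remaining 1090 kb held none. The cluster from Olfr9 to Olfr827 on chromosome 10, with 58 genes, held 4 summits at 3.25 per Mb, and 2 of them, with scores 267.66 and 245.13, lay side by side near Olfr822 and Olfr823. In these 5 clusters the CTCF to IgG ratio ranged from 0.732 to 0.886.

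**Figure D4:**
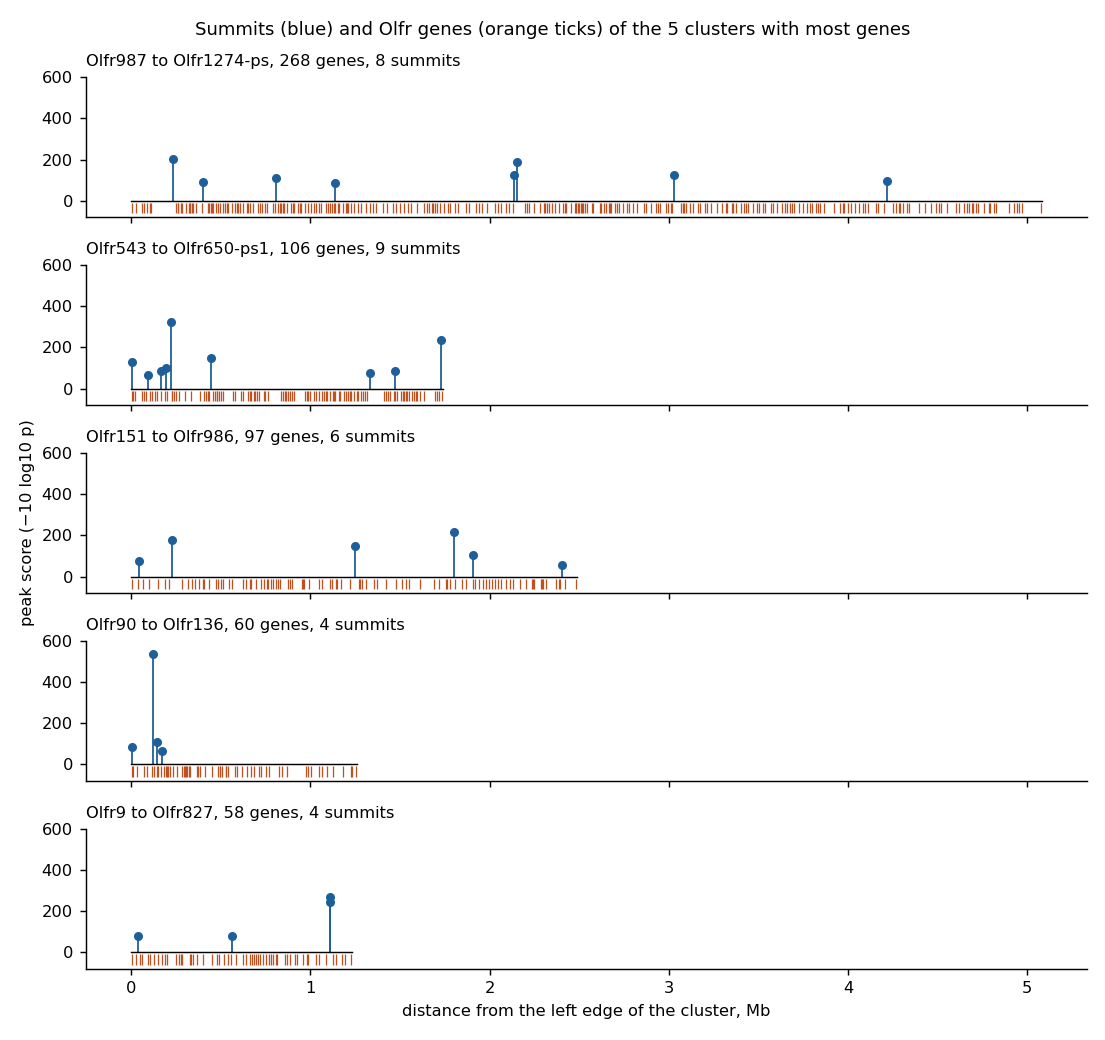
Position of CTCF summits (vertical lines with dots, height = peak score) and of Olfr gene starts by coordinate (orange ticks) in the 5 clusters with most genes, by distance from the left edge. The 31 summits leave long runs of genes without any, and those of the cluster from Olfr90 to Olfr136 lie in its first 171 kb.

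The 3 clusters without a summit that hold most genes were those from Olfr1275 to Olfr1318 on chromosome 2, with 44 genes in 936 kb, from Olfr20 to Olfr412 on chromosome 11, with 44 genes in 1025 kb, and from Olfr24 to Olfr18 on chromosome 9, with 38 genes in 1591 kb. They held 1671, 2401 and 3083 CTCF tags and 2287, 3174 and 4268 IgG tags. A count of 0 allows up to 3.20, 2.93 and 1.89 summits per Mb in them. IgG tags were at 2.44, 3.10 and 2.68 per kb, beside 2.91 over all clusters, so none of the 3 was empty of tags. The flanking summits of the last are 1867 kb apart, which made it number 55 among the 33207 stretches between neighbouring summits by length. Among the 100 longest stretches it was the only one that holds a whole Olfr gene.

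Among the clusters with at least 5 genes, the 3 densest hold 8, 8 and 22 genes. The cluster from Olfr70 to Olfr155 at chr4:43702872-43873335, with 8 genes in 170 kb, held 8 summits or 46.9 per Mb. Its CTCF to IgG ratio was 1.67 (1.48 to 1.88), from 742 and 424 tags, and its G+C content, at 45.9%, was the highest of the 35. Its 8 summits had scores from 64.05 to 206.23, and 4 of them lay within 3 kb of Olfr71, Olfr156 or Olfr157. The cluster from Olfr30 to Olfr311 on chromosome 11, with 22 genes, had 15.1 per Mb from 6 summits, ranking next after the one from Olfr1379-ps1 to Olfr1374-ps1 given above.

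Few receptor genes had a summit nearby. In the gene body plus 5 kb, 49 of 1243 genes had at least 1 summit, or 3.94% (Wilson interval 2.99 to 5.17), beside 41.4% of all genes. Since Olfr genes are short, with a median body of 957 bp against 5920 bp, equal windows of 5 kb around the gene start were compared too. There 41 genes had a summit, or 3.30% (2.44 to 4.44), beside 22.1% of all genes. Among the 33410 genes that are no Olfr gene the share was 22.8%. The genes of a cluster share its sequence and are not independent. The median distance from gene start to the nearest summit was 114.7 kb, with quartiles at 43.6 and 256.8 kb, against 17.9 kb for all genes. The farthest was Olfr849 on chromosome 9, at 932.6 kb.

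Tags were also counted for each gene. A gene body plus 5 kb held a median of 30 CTCF tags, from 0 to 412, and 38 IgG tags, from 0 to 403. Of the 1238 genes with at least 20 tags in both libraries together, the CTCF to IgG ratio had a median of 0.751 and ranged from 0.243 to 3.24. It reached 2 in 16 genes, or 1.29% (0.797 to 2.09), beside 16.2% of all genes. The 5 highest were Olfr71, with 109 CTCF and 32 IgG tags, Olfr1499, with 138 and 41, Olfr1358, with 94 and 29, Olfr1375-ps1, with 75 and 25, and Olfr222, with 113 and 39. Each of these 5 had 1 to 3 summits in its window, and their ratios of 2.76 to 3.24 are descriptions of the extremes of the list.

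None of 8 receptors chosen because they are often studied had a summit in its gene body plus 5 kb, where 3.94% of all Olfr genes and 41.4% of all genes have one, so the count says nothing particular about these receptors. Olfr73, also called mOR-EG, a eugenol receptor, had 18 CTCF and 21 IgG tags, and its nearest summit was 321 kb from its start. Olfr16, also called MOR23, had 34 and 47 tags, with the nearest summit at 306 kb. Olfr17, known as P2, had 25 and 48 tags, a ratio of 0.496 (0.293 to 0.820), and Olfr2, the I7 receptor, had 31 and 39. These 4 had no summit within 40 kb of their start.

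Olfr1507, also called MOR28, belongs to the chromosome 14 array on which the H enhancer is known to act. It had 36 CTCF and 39 IgG tags, and the nearest summit was 84.8 kb from its start. Olfr151, known as M71, had 89 and 99 tags with a summit at 21.7 kb, and Olfr78 had 136 and 128 tags with a summit at 64.0 kb. Olfr544 had 57 and 43 tags, a ratio of 1.26 whose interval included 1 (0.835 to 1.92), and its nearest summit, at 10.8 kb, was the closest among these receptors. Olfr160 is not named in the annotation used.

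The summits inside the clusters lay mostly between genes. Of the 118, 101 were outside every annotated gene, or 85.6% (78.1 to 90.8), 50 were within 5 kb of an Olfr gene and 11 were inside one. The shares of cluster bases between genes, within 5 kb of Olfr genes and inside them were not measured. These counts therefore show no preference for any of these places. The 10 genes with a summit in the body were led by Olfr56, on chromosome 11, with 2 summits and a top score of 301.12. Its gene model is 156499 bp long, and the top summit lies in an intron. In 5 genes the summit fell in a coding exon, which were Olfr304 with score 188.47, Olfr543 with 129.18, Olfr15 with 120.71, Olfr1368 with 80.65 and Olfr452 with 52.3. The CTCF tags in these 5 peaks numbered 31, 34, 25, 20 and 14, and the IgG tags 4, 6, 3, 5 and 3. The others were Olfr701, in an intron, and Olfr1069-ps1, Olfr754-ps1 and Olfr658, in exons outside coding sequence.

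The 5 summits with the highest scores stood apart from these genes. The first, score 579.45, lay at chr7:6478005, 9.85 kb upstream of Olfr1349, with 101 CTCF and 11 IgG tags in a peak of 2.3 kb. The second, score 533.54, lay at chr17:37340796, 5.84 kb upstream of Olfr94 and 7.76 kb from Ubd, which encodes a ubiquitin-like protein, and had 75 and 2 tags and the greatest height inside the clusters, 38 tags. The third, score 371.42, lay 11.5 kb past Olfr523 with 56 and 3 tags and no motif match, and the fourth, score 330.65, lay 6.72 kb from Gpx6, a glutathione peroxidase gene, with 61 and 6 tags. The fifth, score 325.37, lay 2.70 kb upstream of Olfr557 and 8.19 kb from Trim68.

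Other genes were rare near these summits. A gene that is no Olfr gene lay within 5 kb of 22 of the 118, or 18.6% (12.6 to 26.6), against 71.4% (65.9 to 76.3) of the flank summits. Such genes with 5 kb around them cover 12.8% of the bases inside the clusters and 60.4% of the flanks. Sequence inside the clusters near other genes held 5.82 summits per Mb and the remainder 3.73, a ratio of 1.56 whose interval included 1 (0.935 to 2.5, exact binomial test, p = 0.0714). Away from other genes, with bases and summits both restricted, the density inside was 0.223 times that of the flanks (0.164 to 0.303), and near other genes it was 0.212 times (0.130 to 0.330). Where summits near other genes were dropped but not the bases, the ratio was 0.490.

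Summits inside the clusters had lower scores and heights at the median. Their median score was 101.46 (order-statistic interval 86.8 to 117.67), against 135.56 (116.89 to 150.99) in the flanks and 118.04 over chromosomes 1 to 19. The intervals of clusters and flanks touched between 116.89 and 117.67. The median height was 11 tags inside (11 to 13) and 14 in the flanks (13 to 14). A score of at least 100 was reached by 60 of 118 inside, or 50.8%, and by 183 of 283 in the flanks, or 64.7%. A motif match lay within 150 bp of 82 of 118 summits inside, or 69.5% (60.7 to 77.1), and of 212 of 283 in the flanks, or 74.9% (69.6 to 79.6), and these intervals overlap.

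The motif itself was less frequent in the clusters, and its matches there were less often accompanied by a summit. At a threshold of 1e-05 for a match under the base frequencies, both strands of the clusters held 1611 matches, or 54.6 per Mb, and the smaller flanks also 1611, or 132 per Mb, a ratio of 0.413 (0.385 to 0.443). The same base frequencies were used for all regions, although G+C content was 38.9% in the clusters and 42.6% in the flanks. Matches were not compared within classes of G+C content. Over chromosomes 1 to 19 there were 103 per Mb, 10.5% of them with a summit within 150 bp. Inside the clusters 86 matches had one, or 5.34% (4.34 to 6.55), and in the flanks 222, or 13.8% (12.2 to 15.5). The ratio of these shares was 0.387 (Fisher's exact test, two-sided, p = 2.16e-16). The test takes matches as independent, although those inside comprised 1202 distinct sequences and those of the flanks 1242.

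The share rose with the motif score in both sets and was lower inside in each of 5 score classes. For matches that score 21 or more, 19 of 54 inside had a summit, or 35.2% (23.8 to 48.5), against 55 of 100 in the flanks, or 55.0% (45.2 to 64.4), and 47.8% over chromosomes 1 to 19. The intervals of clusters and flanks overlap in this class. In the lowest class, from 13.06 to 15, they do not, with 1.12% inside (0.589 to 2.11) and 4.87% in the flanks (3.45 to 6.84).

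**Figure D5:**
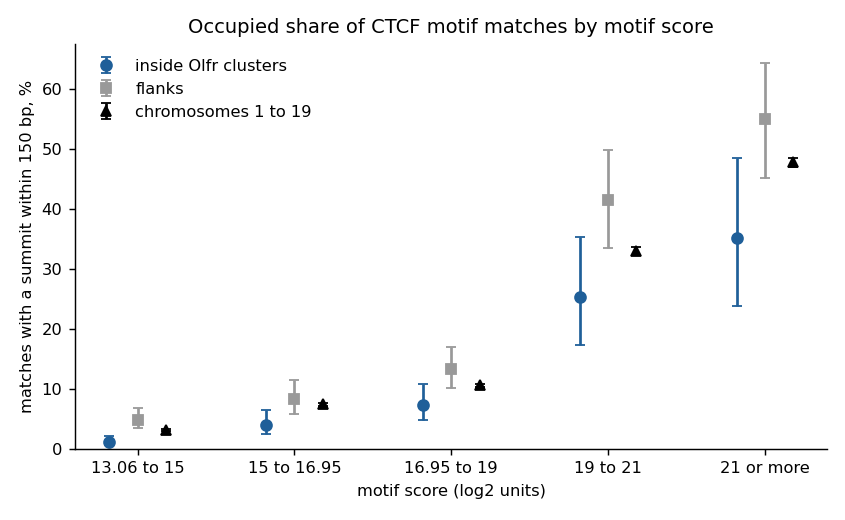
Share of CTCF motif matches with a summit within 150 bp, in percent, by class of motif score (log2 units), inside Olfr clusters, in the flanks and over chromosomes 1 to 19, with 95% Wilson intervals. The circles for the clusters lie lowest in each class, at 1.12% in the lowest and 35.2% in the highest.

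The strongest matches without a summit inside the clusters are shown because they come as close to the consensus as the sequences of the highest summits above.
Near Olfr159, chr4:43782433-43782451, minus strand: aGGCCAgCAGaGGGCACcA
Near Olfr373, chr8:74611683-74611701, plus strand: TGaCCAgaAGaGGGCACTg
Near Olfr54, chr11:50838982-50839000, plus strand: gGGCCAgtAGaGGGCACTA
Near Olfr1375-ps1, chr11:50860070-50860088, plus strand: gGGCCAgtAGaGGGCACTA
Near Olfr1423, chr19:12086942-12086960, minus strand: aGGCCACaAGGGGGCAgTc
Their scores were 24.64, 24.18, 23.68, 23.68 and 23.47, and the 301 bp around them held 7, 4, 5, 2 and 3 CTCF tags. The IgG library had 1 tag at the last and none at the others. The match near Olfr1423 lies inside a deposited peak of score 75.87 whose summit is farther than 150 bp away, and the other 4 lie in no peak. The matches near Olfr54 and Olfr1375-ps1 have the same 19 bases and lie in the same cluster. Over all 35 matches with a score of at least 21 and no summit, 148 CTCF and 18 IgG tags fell in the 301 bp windows, a scaled ratio of 7.83 (4.78 to 13.6). The 45 such matches of the flanks had 6.57 (4.68 to 9.44). The 19 matches with a summit inside the clusters had 14.4 (9.55 to 22.8). CTCF tags were thus in excess of IgG tags at matches without a summit too, and 4 of the 35 lay inside a deposited peak whose summit was farther off.

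Repeated sequences made up part of the unoccupied matches. Of the 1611 matches inside, 539 had 19 bases that occurred at least 2 times inside the clusters, and 4 of them had a summit, or 0.742% (0.289 to 1.89). Of the 1072 others 82 had one, or 7.65% (6.21 to 9.40). The most frequent sequence occurred 50 times inside and 83 times in the flanks, with no summit at any of them. Whether tags could be placed at such copies was not tested. Among matches that occurred once in their set, 7.65% inside and 17.4% of 1160 in the flanks had a summit, a split made after the first results were seen and given without a test.

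The receptor coding sequence carries matches of its own. The 1.04 Mb of Olfr coding sequence held 137 matches, or 131 per Mb. Of these, 2 had a summit, or 1.46% (0.401 to 5.17), against 5.70% (4.63 to 7.0) of the 1474 other matches inside the clusters. These intervals overlap, and the matches were not compared at like motif score or number of copies. The 4 repeated sequences below are shown as examples of matches that recur within the arrays, and several that occur more often are not shown.
First repeat: TGGCCtgCAGatGGCcacA
Second repeat: TGGaCACCAGaGGttAgTg
Next repeat: aactCAgCAGaGGGCAggA
Last repeat: TGGCCACaAGGaGGaAgct
The first occurred 9 times, each time in Olfr coding sequence, on 2 chromosomes. The second occurred 6 times, never in Olfr coding sequence, the next 6 times, 5 of them in coding sequence, and the last 4 times, 3 of them in coding sequence. None of these copies had a summit, and their scores were 14.77, 14.18, 13.67 and 15.08. Inside the clusters, 1.12% of all matches scoring from 13.06 to 15 had a summit, and 3.99% of those from 15 to 16.95. The lack of a summit at these few copies therefore says nothing particular about their sequences.

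A summit was present within 100 kb of 98 of the 122 cluster edges, at a median of 27.9 kb from the edge with quartiles at 11.1 and 49.4 kb. The first of them had a median score of 143.41, from 50 to 435. A motif match within 150 bp gave 77 of them a strand, and 32 pointed toward the cluster, or 41.6% (31.2 to 52.7, exact binomial test against an even split, two-sided, p = 0.171). Over all 212 flank summits with a match, 85 pointed toward the cluster, or 40.1% (33.7 to 46.8, exact binomial test, p = 0.00475), and summits of one flank are not independent of each other. The call therefore depended on which summits were counted. Inside the clusters, 18 of 118 summits lay within 20 kb of an edge, or 15.3% (9.87 to 22.8), where 6.67% of the length lies. In clusters of at least 5 genes it was 10 of 109, or 9.17% (5.06 to 16.1), for 4.91% of the length.

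Other arrays were clustered by the same rule for comparison. Vomeronasal receptor genes, which encode pheromone receptors and have symbols that start with Vmn1r or Vmn2r, gave 435 genes in 50 clusters with 29 summits, or 1.41 per Mb. Genes with symbols that start with Krt are called keratin genes here, by symbol alone and whatever protein they encode. They gave 107 genes in 8 clusters with 57 summits, or 19 per Mb. The Olfr density was 2.84 times that of the vomeronasal clusters (1.88 to 4.42, exact binomial test, p = 5.00e-08 adjusted over 2 comparisons) and 0.211 times that of the keratin clusters (0.152 to 0.295, adjusted p = 1.79e-17 in the exact test).

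The vomeronasal clusters also held fewer control tags, 1.95 IgG tags per kb against 2.91 in the Olfr clusters. Per IgG tag the ratio of summit densities was 1.90 (1.26 to 2.96). These 2 sets are not fully separate, with 1 overlap between an Olfr and a vomeronasal cluster. G+C content was alike at 39.0% and 38.9%, while keratin clusters had 43.7%. All 3 sets had fewer summits inside than in their flanks, with ratios of 0.172 for Olfr, 0.128 (0.0818 to 0.194) for vomeronasal and 0.497 (0.340 to 0.725) for keratin clusters.

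Genes that serve odorant detection were read the same way. Of 21 genes of the olfactory pathway, 15 had a summit in the gene body plus 5 kb, beside 41.4% of all genes and 53.4% of protein-coding genes. Within 5 kb of the start 5 had one, beside 22.1% of all genes and 24.9% of protein-coding genes. The first window grows with the length of a gene, while the second does not. Adcy3, the adenylyl cyclase of olfactory cilia, had 4 summits with 498 CTCF and 292 IgG tags, and Gnal, the G protein alpha subunit, had 2. Of the channel genes, Cnga4 had 1 summit, and Cngb1 had 3 summits and a ratio of 2.32 (1.84 to 2.93). The chloride channel gene Ano2 also had 3 summits, with a ratio of 0.872 (0.803 to 0.947). Ric8b, which encodes an exchange factor for the G protein, had 4 summits. Reep1 had 3 and Stoml3 had 2.

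Omp, the marker of mature olfactory neurons, had none, with 51 and 28 tags, nor did Gng13, with 54 and 35. The receptor transport genes Rtp1 and Rtp2 had none within their windows and ratios of 0.969 and 0.979, with the nearest summits 23.2 kb from their starts. Among regulators of receptor choice, Kdm1a, a histone demethylase, had 3 summits, the nearest 204 bp from its start, and Ldb1, a cofactor that joins enhancers, had 2. Lhx2, a homeodomain factor that binds receptor enhancers, had none and a ratio of 0.850 (0.657 to 1.10), and Atf5 had none. Emx2 had 1 summit and the highest ratio of the list, 2.76 (1.89 to 4.10). Ebf1, Ebf2, Ebf3 and Ebf4 had 3, 3, 1 and 2 summits, and Ebf1 had the lowest ratio of the list, 0.842 (0.785 to 0.903).

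The IgG library gives the number of tags that could be placed in these arrays without CTCF enrichment. Of 2900 windows of 10 kb inside the clusters, none had IgG tags at 2.5 times the chromosome median or more, which at 3 counts, the limit used here for a count of 0, allows a share of up to 0.103%, beside 0.0426% of all windows. At 0.2 times the median or less were 97 windows, or 3.34% (2.75 to 4.06), beside 2.89% of all windows. The longest run of such windows spans 90 kb at chr2:90000001-90090000 around Olfr1506, with 7 IgG and 7 CTCF tags where the chromosome median gives 306, and the next spans 80 kb in the same cluster with 1 IgG tag. A run of 30 kb lies within the Olfr56 gene model. Few tags of either library fell in such stretches. The median window held 30 IgG tags inside and 33 over all windows, and 23 against 29 CTCF tags.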

How the data were processed

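Both libraries were made and sequenced by the authors on an Illumina Genome Analyzer II. The deposited files give tag positions on build mm9 as 1 count per line (35 bp tags), peaks with a score of −10 log10 p, all at 50 or more, and summits with the tag signal (pileup height) at each. Per the submitters' processing notes, peaks were called with MACS 1.4. The aligner and its treatment of reads that match several places are not given in the sources used here. If such reads were dropped, tags and summits of both libraries would be undercounted in arrays of paralogous genes and at repeated motif sequences, which was not tested, so IgG tags are given beside the densities.

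The samples were grouped by their labels, 1 library for each antibody. Tags were moved 92 bp toward the fragment centre, from a fragment length of 184 bp estimated on 1000 peaks. Densities are per called base and tag ratios are scaled to library totals. Ratios have exact binomial intervals (Clopper-Pearson), shares Wilson intervals and medians order-statistic intervals, all at 95% and for counting error only. Intervals of ratios and medians were checked on simulated data. Adjustment was by Benjamini-Hochberg. The 19 bp matrix used a pseudocount of 1 and base frequencies of 0.29 and 0.21. Python 3.11.15 with numpy 2.4.6, scipy 1.17.1, pandas 2.3.3 and numba 0.67.0 was used.

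Members, lists and tests were chosen with earlier results of these data known. Genes were named by a rule: the 5 clusters with most genes, the 3 densest and 3 sparsest of at least 5 genes, the 5 highest summits, listed receptors, the 5 highest ratios, genes holding a summit and pathway genes. Alternatives covered score, margins, joining and flank distances, exposure and motif threshold.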

Additional observations from a re-analysis of the deposited data

How the results depend on the processing

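The inside to flank ratio of summit density stayed below 1 with an exact p under the threshold in 12 alternatives, from 0.135 to 0.490, and ranged from 0.164 to 0.193 when each of the 61 clusters was left out in turn. The inside to flank ratio of CTCF tags went from 0.608 to 0.694 without tags in peaks. Scaled by tags outside peaks, the CTCF to IgG ratio was 0.896 inside and 1.32 in the flanks. Without tags in peaks it was 0.772 and 1.00, and with both changes, a combination added after seeing the data, 0.860 and 1.11. The share of Olfr genes with a summit was 0.805% for the gene body alone, 14.1% with 20 kb on each side and 2.17% at a score of at least 100, which follows from the narrower or wider window and the fewer summits. The share of motifs pointing toward the cluster passed the threshold only over all summits within 100 kb of an edge, at 40.1%, where more summits are counted. The share of summits within 20 kb of an edge was 9.17% in clusters of at least 5 genes, and the share inside another gene, rather than within 5 kb, was 5.93%. The other alternatives kept their direction and side of the threshold. No paired analysis was possible because each group has 1 library. Depth was not varied, and the lowest summit had 6 tags both inside the clusters and over chromosomes 1 to 19.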
